A study of Mus musculus with 94 samples.

Results

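Lysosomal genes and the subunit genes of the vacuolar proton pump were described in single mouse haematopoietic stem cells, 43 genes of the 13244 in the table. The list was taken by symbol and all 43 genes were found. It holds 14 pump genes and 29 other lysosomal genes. It was chosen by function, but with the measured Ski-KO minus Ski-WT differences of these cells in view, in which the pump gene Atp6v0b was among the lowest. The values of that comparison below are therefore a description. The study, on how myelodysplastic syndrome begins, compares cells labelled Ski-KO with cells labelled Ski-WT, Ski being a transcriptional co-repressor of TGF-beta signalling. Both groups came from C57BL/6 fetal liver, had spent 6 months in transplanted hosts, and were sorted from bone marrow as Cd45.2-positive, lineage-negative, c-Kit-positive, Sca-1-positive, Cd150-positive and Cd48-negative cells. The labels give neither the Ski allele nor any way it was removed, and name no donor animal and no host. There were 46 Ski-KO cells, 27 with the label prefix 051716 and 19 with the prefix 051816, and 48 Ski-WT cells, all with the prefix 061016. The labels do not say what a prefix stands for. Each genotype therefore counted as 1 sample, no test was made, and genotype and prefix cannot be told apart.

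The lysosome is the acidic compartment in which cells break down proteins, lipids and glycans. Its acidity is made by the vacuolar ATPase, in which a cytosolic V1 sector splits ATP and turns a ring of proteolipids in the membrane-bound V0 sector, so that protons are carried across the membrane. The low pH activates hydrolases such as the cathepsins, and the pump also serves as a platform for sensing nutrients at the lysosomal surface. In blood stem cells, lysosomes have been linked to the clearing of mitochondria and to quiescence. Many lysosomal genes are controlled by TFEB and its relatives, which bind a palindrome known as the CLEAR element, whose core is CACGTG.

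The list was not chosen by that core, but the core is known from many lysosomal genes, so the stretches that hold it are shown first. The core CACGTG, the longer form TCACGTGA, and that form with a G added before and a C after it, were searched in RefSeq promoters of GRCm38.p6, which run from 250 bases before to 50 bases after each start of transcription. Each form reads the same on both strands, and each longer form contains the shorter ones. Promoters were listed for 36 of the 43 genes. CACGTG was in at least 1 promoter of 12 of these 36 genes (33.3%), compared with 593 of 4775 genes past the expression filter given below (12.4%) and 2187 of 27025 genes in all (8.09%). TCACGTGA was in 6 of the 36 (16.7%), compared with 2.39% and 1.12%, and the form with the added G and C was in none of the 36 genes, compared with 0.796% and 0.37%. Such a match is a description of the letters and does not show a bound site.

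Excerpts of 7 genes follow, each of 30 bases, 5′ to 3′ on the gene's strand, with TCACGTGA or CACGTG in capitals. They are the 4 pump genes with the core and 3 lysosomal genes that stand for membrane proteins and enzymes.
Atp6v0b: ggtCACGTGgggtcggcgcatCACGTGcgc
Atp6v1a: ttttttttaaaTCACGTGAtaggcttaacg
Atp6v0d1: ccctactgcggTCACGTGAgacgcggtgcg
Atp6v0e: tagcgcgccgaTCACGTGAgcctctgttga
Ctsd: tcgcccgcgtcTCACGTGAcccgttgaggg
Lamp1: atatCACGTGgtccagcgccCACGTGatgc
Glb1: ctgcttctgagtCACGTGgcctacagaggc
In GRCm38.p6 coordinates these are chr4:117887339-117887368 (minus strand) for Atp6v0b, chr16:44139373-44139402 (minus) for Atp6v1a, chr8:105566050-105566079 (minus) for Atp6v0d1 and chr17:26676387-26676416 (plus) for Atp6v0e. Those of the lysosomal genes are chr7:142387908-142387937 (minus) for Ctsd, chr8:13159096-13159125 (plus) for Lamp1 and chr9:114401018-114401047 (plus) for Glb1. The Atp6v0b and Lamp1 stretches hold 2 copies of the core each, the first beginning 36 and 61 bases before the start of transcription. The Ctsd and Atp6v0e stretches overlap an exon of their own gene in GENCODE M21, and the other 5 overlap none.

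Levels are in TPM, transcript abundances scaled by gene length and by the total of each cell, so they may be compared between genes. A difference is the Ski-KO mean of log2(TPM + 1) minus the Ski-WT mean, on a scale that understates changes of low genes and and gives cells at 0 much weight. Detection means 5 TPM or more, and shares of cells carry exact 95% binomial (Clopper-Pearson) intervals that cover counting error only. The filter kept the 6240 genes found above 0 in 25% or more of either genotype's cells. Sequencing depth is unknown, as TPM keeps none. The median cell had 2094 and 2288 genes at 5 TPM or more in the Ski-KO prefixes 051716 and 051816 and 2415.5 in the Ski-WT cells, and the median difference over the 6240 genes was -0.22. Ski, the targeted gene, was detected in 3 cells labelled Ski-KO and in 6 labelled Ski-WT, too few to check the genotype labels. Of the stem cell markers fixed for the check of the gate, 7 of 10 in the Ski-KO cells and 9 of 10 in the Ski-WT cells reached that level in at least 25% of cells. Lysosomes are abundant in macrophages, and 6 of the 8 macrophage markers in the table (Emr1, Csf1r, Mrc1, C1qb, C1qc and Fcgr1) were listed at 0 in all 94 cells. The 8 markers summed to at most 2.48 TPM in any Ski-KO cell and 146.94 TPM in any Ski-WT cell. Of the 11 neutrophil markers, only Prtn3 reached 5 TPM in at least 25% of cells, with 24 Ski-KO and 33 Ski-WT cells and a difference of -1.72. S100a9 (5 and 1 cells, 0.61) and Ngp (2 and 1 cells, 0.28) of the same list had differences above 0. The neutrophil sum had a median of 43.04 TPM in the Ski-KO cells (range 0 to 1648) and 165 TPM in the Ski-WT cells (0 to 3182), and its part in the results below was not tested.

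The 14 listed pump genes were expressed at higher levels and in more cells than the 29 other lysosomal genes. The median of mean TPM was 148.6 over the 14 pump genes (range 39.01 to 602) and 54.5 over the 29 other genes (0 to 658), compared with 49.2 over the 6240 genes. In the Ski-WT cells the median pump gene was detected in 41.7% of cells and the median other gene in 22.9%. In the Ski-KO cells the medians were 31.5% and 21.7%. All 14 pump genes and 22 of the other 29 passed the filter. Those that did not were Scarb2, Mcoln1, Ctsl, Ctss, Lgmn, Neu1 and Tfeb. The 6 highest members were Laptm5 (658 TPM), Atp6v1f (602), Atp6v0e (438), Atp6v1g1 (324), Ctsd (237) and Atp6v0c (229), as means over all cells. Single-cell values spread widely. Every member was listed at 0 in some cells of each genotype, so the ranges of the genotypes had to overlap.

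**Figure D1:**
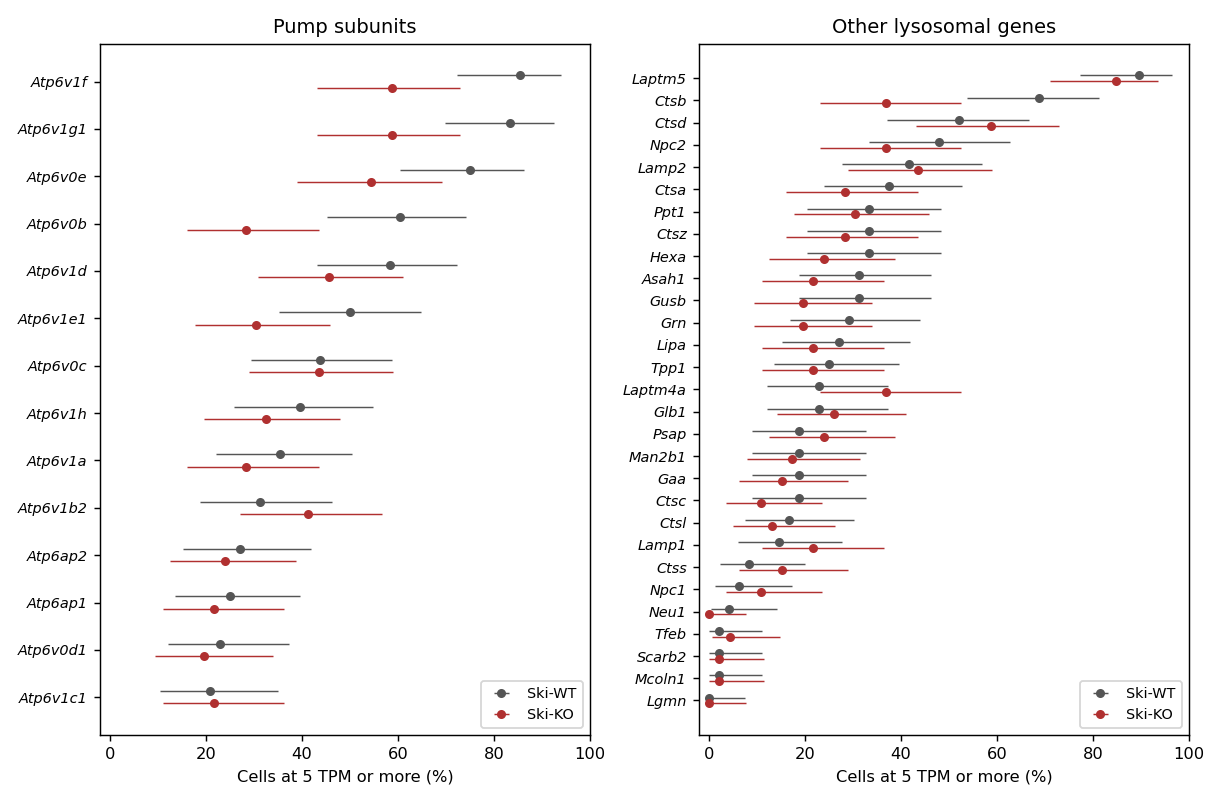
Share of cells at 5 TPM or more (horizontal axis, percent) for the 14 pump genes (left) and the 29 other lysosomal genes (right), in Ski-WT cells (grey) and Ski-KO cells (red). Bars are exact 95% binomial intervals; the intervals are apart for Atp6v0b (28.3% against 60.4%) and Ctsb (36.96% against 68.8%).

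The V0 sector genes did not share a direction. Atp6v0b encodes the c'' proteolipid of the rotating ring. It ranged from 0 to 10.3 on the log2(TPM + 1) scale in the Ski-KO cells, with a median of 0, and from 0 to 10.7 in the Ski-WT cells, with a median of 7.15. Most Ski-KO cells thus listed Atp6v0b at 0 or near it and most Ski-WT cells held it at a high level. Detection was 28.3% in the Ski-KO cells, 13 of 46 (interval 15.99% to 43.5%). In the Ski-WT cells it was 60.4%, 29 of 48 (interval 45.3% to 74.2%). Its difference was -2.58, with -2.38 in prefix 051716 and -2.86 in prefix 051816, and 12 of the 6240 genes had a lower one. Mean expression was 128 TPM against 293 TPM. Where Atp6v0b was detected, its median log2 level was 8.20 in Ski-KO cells and 8.44 in Ski-WT cells.

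Atp6v0e, a small membrane subunit of the V0 sector, ranged from 0 to 11.1 (median 6.53) in the Ski-KO cells and from 0 to 11.6 (median 7.86) in the Ski-WT cells. It was detected in 25 and 36 cells, and its difference of -1.39 was larger in prefix 051716 (-1.91) than in prefix 051816 (-0.66). Mean levels were close, at 422 and 454 TPM. Atp6v0d1, the stalk subunit that couples the ring to V1, was found in few cells (9 and 11), with a difference of 0.22.

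Atp6v0c, which encodes the c proteolipid that makes up most of the ring, was detected in 20 cells of Ski-KO and 21 of Ski-WT and differed by 0.41, with 0.69 in prefix 051716 and 0.02 in prefix 051816. Its mean was 308 TPM against 154 TPM. The table also lists Atp6v0c-ps2, a processed copy by its symbol, and reads of such copies can be split between the gene and the copy. Atp6v0c-ps2 differed by -1.18 (16 against 25 cells detected). With the TPM of both added, a step chosen after the values were seen, the difference was -0.63, with 0.17 in prefix 051716 and -1.78 in prefix 051816. The direction of Atp6v0c is thus uncertain.

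Of the 8 V1 genes, 6 were lower in both Ski-KO prefixes and 2 were higher in both, beside 44.3% and 18.5% of the 6240 genes. Atp6v1f, the F subunit of the central shaft, was detected in 41 of 48 Ski-WT cells (85.4%, interval 72.2% to 93.9%) and 27 of 46 Ski-KO cells (58.7%, interval 43.2% to 73.0%). Its log2 values ran from 0 to 11.9 in both genotypes, with medians of 5.75 in the Ski-KO and 8.75 in the Ski-WT cells. The difference was -2.40, with -2.74 and -1.92 in prefixes 051716 and 051816, and 21 of the 6240 genes had a lower one. Both genotypes thus spanned the same range and differed in their medians. Among cells in which Atp6v1f was detected the median was 9.48 in the Ski-KO and 9.16 in the Ski-WT cells.

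Atp6v1g1, a subunit of the peripheral stalk, had the same pattern. It ranged from 0 to 11.2 (median 5.31) in the Ski-KO cells and from 0 to 10.3 (median 7.94) in the Ski-WT cells. It was detected in 27 and 40 cells, a difference of -1.99 (-2.14 and -1.78), with means of 305 and 342 TPM. Atp6v1e1, the partner of the G subunit in that stalk, was detected in 14 and 24 cells and differed by -1.58 (-1.70 and -1.40). A single cell held 38.7% of the summed Atp6v1e1 TPM of the Ski-KO cells.

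The catalytic subunit gene Atp6v1a, which binds ATP, was lower by mean TPM (32.3 against 95.3) with a difference of -0.86 (-0.63 and -1.18), but was detected in 13 and 17 cells only. Its partner Atp6v1b2 went the other way, at 0.59 (0.34 and 0.95), with 19 and 15 cells. Atp6v1h, a regulatory subunit, differed by -0.69 and Atp6v1d, another shaft subunit, by -0.76, and both were lower in both prefixes. Atp6v1c1, which links the stalks, was at 0.11. The accessory genes Atp6ap1 and Atp6ap2, which aid assembly of the pump, differed by -0.35 and 0.03, each with prefixes of opposite sign.

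**Figure D2:**
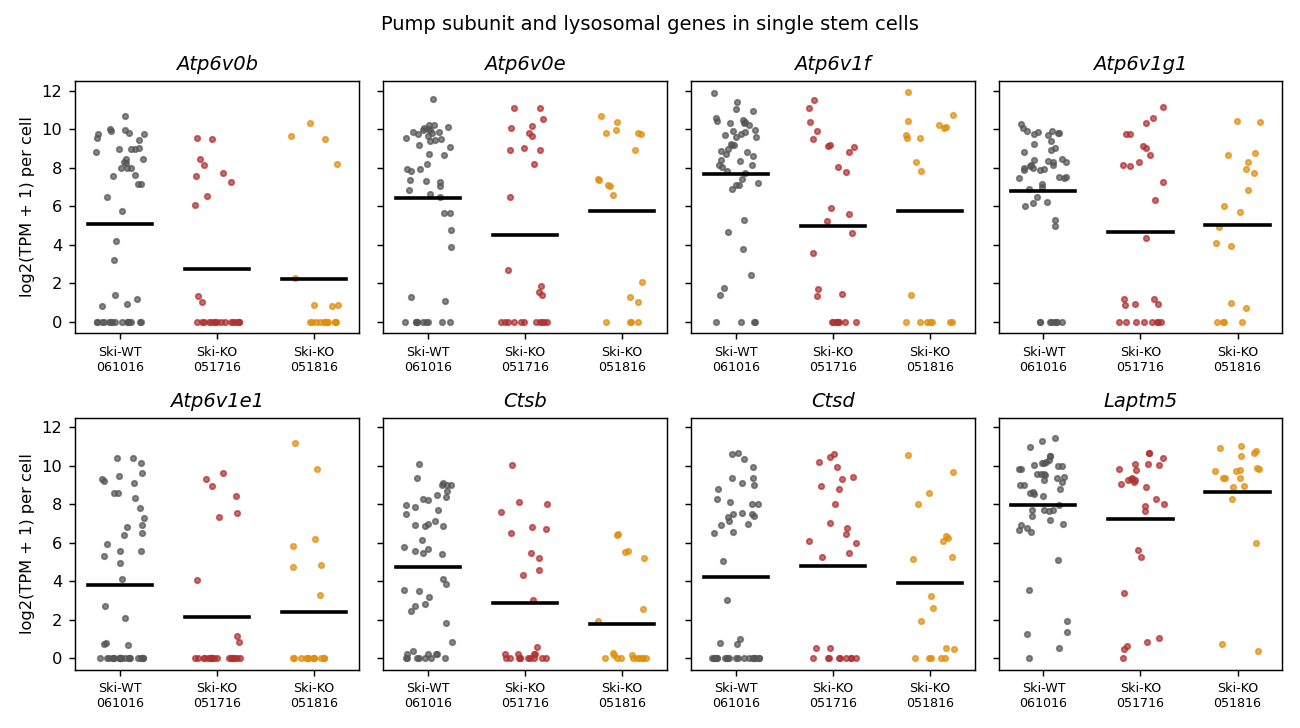
Expression of 5 pump genes and 3 other lysosomal genes cell by cell, as log2(TPM + 1) (vertical axis) for each of the 3 label prefixes (horizontal axis). Points are cells, black lines are prefix means. Atp6v1f, Atp6v1g1 and Atp6v0b had a smaller share of cells at 5 TPM or more in both Ski-KO prefixes than in the Ski-WT cells. For Laptm5 that share was 81.5% and 89.5% in prefixes 051716 and 051816 and 89.6% in the Ski-WT cells.

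Of the 5 listed membrane genes past the filter none was lower in both Ski-KO prefixes, beside 44.3% of the 6240 genes. Higher in both were 2, Lamp1 and Npc1, beside 18.5%. The median difference of the 5 was 0.27. Laptm5, a transmembrane protein gene of blood cells and the highest member, ranged from 0 to 11.1 (median 9.31) in the Ski-KO cells and from 0 to 11.4 (median 8.89) in the Ski-WT cells. It was detected in 39 cells of Ski-KO and 43 of Ski-WT, and its difference of -0.16 was -0.74 in prefix 051716 and 0.67 in prefix 051816. Lamp1 and Lamp2, the main glycoproteins of the lysosomal membrane, differed by 0.70 and 0.27. Lamp1 was found in 10 and 7 cells, and its difference was 1.18 in prefix 051716 and 0.03 in prefix 051816. Lamp2 was found in 20 cells of each genotype, with 0.71 and -0.35 in the prefixes. Laptm4a, a relative of Laptm5, differed by 0.45 (17 against 11 cells). Npc1, the membrane cholesterol transporter, was low, at 2.74 and 3.29 TPM, and passed the filter only through the Ski-KO cells. Scarb2, the receptor that carries glucocerebrosidase to the lysosome, and Mcoln1, a calcium channel, were each detected in 1 cell per genotype.

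Among the 9 proteases, Ctsb stood out. Ctsb, the cysteine protease cathepsin B, ranged from 0 to 10.04 (median 0.24) in the Ski-KO cells and from 0 to 10.1 (median 5.52) in the Ski-WT cells. Detection was 36.96% in the Ski-KO cells, 17 of 46 (interval 23.2% to 52.5%), and 68.8% in the Ski-WT cells, 33 of 48 (interval 53.7% to 81.3%). The difference was -2.31, with -1.86 in prefix 051716 and -2.94 in prefix 051816, and 29 of the 6240 genes had a lower one. Its mean level was 54.6 against 154 TPM, although 1 cell held 41.8% of the Ski-KO sum.

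The other abundant cathepsin, the aspartic protease Ctsd, did not follow Ctsb. It was detected in 27 cells of Ski-KO and 25 of Ski-WT, with a median of 5.25 (0 to 10.6) against 4.06 (0 to 10.7). Its difference of 0.25 was 0.61 in prefix 051716 and -0.26 in prefix 051816. Ctsa, a carboxypeptidase that protects other hydrolases, Ctsz and Tpp1 had prefixes of opposite sign, with differences of -0.42, -0.59 and -0.73. Ctsc, the activator of granule proteases, differed by -0.49 with only 5 and 9 cells. Ctsl, below the filter, was detected in 6 and 8 cells. Ctss, also below it, had the highest difference of the proteases, at 0.42, from 7 and 4 cells. Lgmn, which processes cathepsins, was listed at 0 in all 94 cells, as were 959 other genes of the table.

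The lipid and glycan enzymes were mostly at moderate levels. Asah1, the acid ceramidase, had the lowest value of the group, at -1.20 (-1.17 in prefix 051716 and -1.25 in prefix 051816). It ranged from 0 to 9.82 in the Ski-KO cells and from 0 to 10.4 in the Ski-WT cells, with a median of 0 in both, and was detected in 10 and 15 cells. Hexa, a subunit of the hexosaminidase that degrades gangliosides, differed by -0.92, of which little was in prefix 051716 (-0.25) and more in prefix 051816 (-1.87). Ppt1 (-0.36), Lipa (-0.35) and Gusb (-0.49) were lower in both prefixes by small amounts. Glb1 (-0.05), Gaa (-0.19) and Man2b1 (-0.02) had prefixes of opposite sign. Neu1, below the filter, was detected in 0 Ski-KO and 2 Ski-WT cells.

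Of the cofactors, Npc2, which hands cholesterol to Npc1, differed by -0.78 (-0.91 and -0.59) and was detected in 17 and 23 cells. Grn, the precursor of granulins, differed by -0.66 (9 and 14 cells). Psap, the precursor of the saposins that assist sphingolipid breakdown, was lower by mean TPM (6.80 against 30.5) yet was detected in more Ski-KO than Ski-WT cells (11 and 9), and its prefixes had opposite signs. Tfeb itself, the transcription factor of this gene network, was detected in 2 cells of Ski-KO and 1 of Ski-WT, and a difference was not detectable in these data.

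Set side by side, more of the pump genes than of the other lysosomal genes lay well below the Ski-WT cells on the log2 scale, a contrast that was not tested. With a limit of 1 on the log2 scale, 5 of 14 pump genes were lower (35.7%), namely Atp6v0b, Atp6v1f, Atp6v1g1, Atp6v1e1 and Atp6v0e. Without Atp6v0b, whose low value was in view when the list was chosen, 4 of 13 were lower (30.8%). The differences of these 13 genes were in view as well, so leaving out Atp6v0b does not undo the choice. Of the 22 other genes past the filter 2 were lower (9.09%), namely Ctsb and Asah1. Among the 6240 genes 11.8% were lower by that limit, and 2.08% were higher by it, which no member was. Among the 1193 genes at 5 TPM or more in over 50% of all cells, 18.7% were lower and 2.51% were higher by the limit. Of the members, 7 met that condition and 4 of them were lower by 1 or more. In both prefixes 5 of the 7 were lower and none was higher, beside 43.3% and 19.2% of the 1193 genes. A gene was called alike where both prefixes lay on the same side of the Ski-WT cells and the smaller difference exceeded the gap between the prefixes. By that rule 6 pump genes (Atp6v0b, Atp6v1a, Atp6v1e1, Atp6v1f, Atp6v1g1 and Atp6v1h) and 5 other genes (Ctsb, Ctsc, Asah1, Lipa and Npc2) were lower alike, 42.9% and 22.7%, beside 22.8% of the 6240 genes. Without Atp6v0b the pump count was 5 of 13 (38.5%). The share of the other lysosomal genes was thus at the background. Of the members past the filter only Npc1 was higher alike, beside 7.31% of the 6240 genes, although its mean TPM was lower in the Ski-KO cells and it passed through them alone. Ctss, below the filter, was higher alike too (0.40 and 0.46). Among the 1193 widely detected genes 21% were lower and 8.13% higher alike, and of the 7 members there 3 were lower and none was higher.

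The median difference was -0.73 over the 14 pump genes and -0.36 over the 22 other genes past the filter, or -0.19 over all 29, compared with -0.22 over the 6240 genes. For the pump it was -0.71 in prefix 051716 and -0.61 in prefix 051816, beside -0.27 and -0.20 over the 6240 genes, and without Atp6v0b it was -0.69. Both prefixes were compared with the same Ski-WT cells. Their signs differed for 2 of the 14 pump genes and 11 of the 22 others, beside 37.2% of the 6240 genes.

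**Figure D3:**
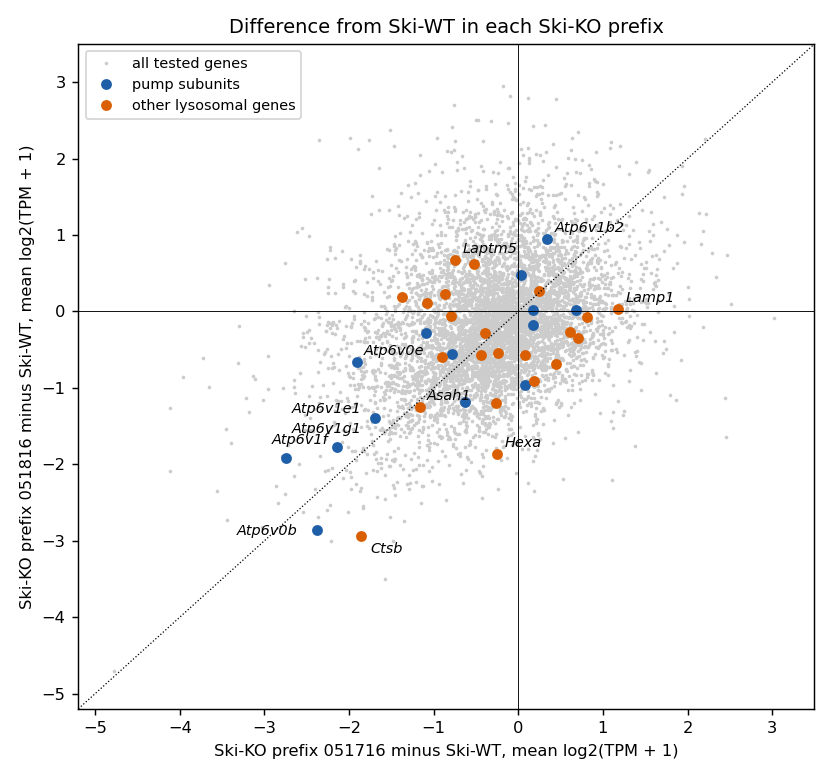
Mean log2(TPM + 1) minus that of the Ski-WT cells, for prefix 051716 (horizontal axis) and prefix 051816 (vertical axis), for the 6240 genes past the filter (grey), 14 pump genes (blue) and 22 other lysosomal genes (orange); the dotted line marks equal values. Atp6v0b, Atp6v1f, Atp6v1g1, Atp6v1e1 and Ctsb lie at the lower left, away from most of the points, and Hexa and Lamp1 lie off the dotted line.

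The contrast between the sets depended on the measure, and was seen in log2 means and shares of cells but not in mean TPM. Of the 14 pump genes, 12 were detected in a smaller share of Ski-KO than Ski-WT cells, with a median change of -7.07 percentage points, beside 64.7% of the 6240 genes and a median of -3.44 points. Of the 22 other genes 15 had a smaller share, with a median of -4.17 points. The median share in the Ski-WT cells was 41.7% over the pump genes and 22.9% over all 29 other genes. Changes in points therefore started from unlike levels and are not on an equal footing between the sets. Among cells that held the gene at 5 TPM or more, the median level was higher in the Ski-KO cells for 10 of 14 pump genes and for 10 of the 22 others, beside 51.3% of 6117 genes detected in both genotypes. Mean TPM was lower for 9 pump genes and higher for 5, beside 52.7% lower among the 6240 genes. The median log2 ratio of mean TPM was -0.13 over the pump genes and -0.18 over the other genes, so by this measure the pump genes were not the lower set. By the same ratio 2 pump genes and 5 other genes were lower by 1 or more, beside 16.96% of the 6240 genes. In these libraries a transcript that was not captured and one that was not made cannot be told apart, and the Ski-KO cells had fewer genes at 5 TPM or more, as given above. Above 0 the median numbers were 3248 in prefix 051716, 3679 in prefix 051816 and 3670.5 in the Ski-WT cells. Adjusted for the number of genes above 0 in each cell, the pump median was -0.62 and that of the 6240 genes -0.07. No adjustment was made for the number at 5 TPM or more.

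**Figure D4:**
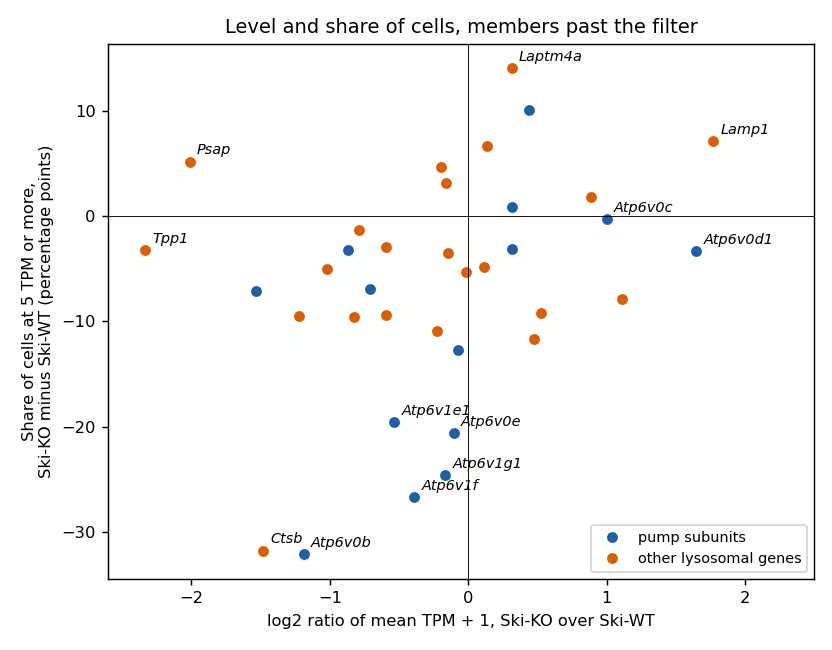
Log2 ratio of mean TPM + 1, Ski-KO over Ski-WT (horizontal axis), and change in the share of cells at 5 TPM or more in percentage points (vertical axis), for 14 pump genes (blue) and 22 other lysosomal genes (orange) past the filter. Atp6v1f, Atp6v1g1 and Atp6v0e lie low on the vertical axis but near 0 on the horizontal one, and Atp6v0b and Ctsb are low on both.

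Averaged within each cell, the 14 pump genes had a mean log2(TPM + 1) of 2.94 ± 1.22 (SD, n = 46 cells) in the Ski-KO cells and 3.75 ± 1.10 (SD, n = 48 cells) in the Ski-WT cells. The range was 0.13 to 6.44 (median 2.87) in the Ski-KO cells and 1.43 to 6.23 (median 3.78) in the Ski-WT cells, so the genotypes overlapped over most of their range. The difference was -0.80, smaller than the SD over cells of either genotype, with -0.85 in prefix 051716 and -0.74 in prefix 051816. A Ski-KO cell held a median of 5 of the 14 pump genes at 5 TPM or more (0 to 11) and a Ski-WT cell 7 (3 to 11). The 29 other genes had means of 1.72 ± 0.62 and 2.01 ± 0.57 (SD over cells), a difference of -0.28 (-0.22 and -0.37). The mean over all 6240 genes differed by -0.26. The 29 genes include some below the filter and the 6240 do not, so these values cover unlike sets. The pump mean exceeded the other mean in 42 of 46 Ski-KO and 44 of 48 Ski-WT cells, and the gap between them was 1.22 in the Ski-KO and 1.74 in the Ski-WT cells. Cells are not replicates of a genotype, so these values describe the libraries.

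**Figure D5:**
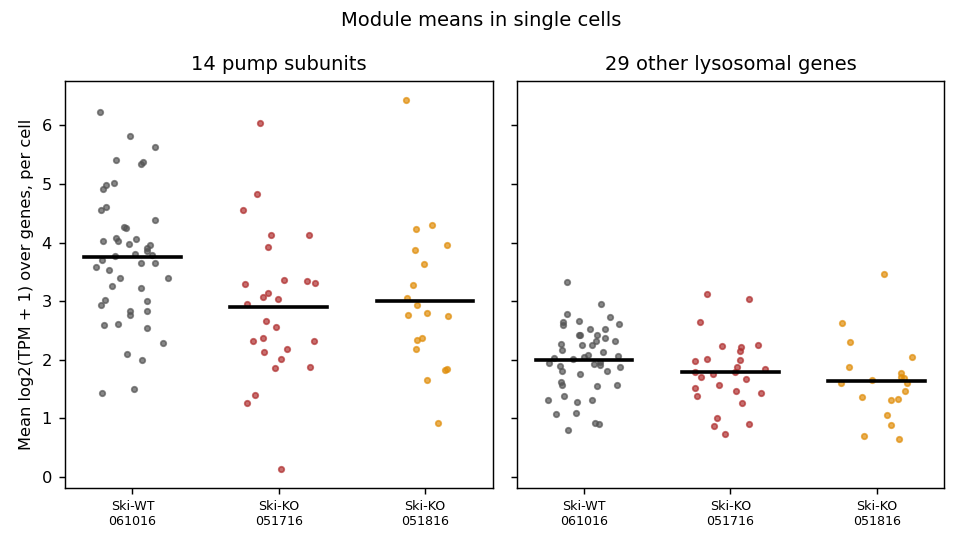
Mean log2(TPM + 1) per cell over 14 pump genes (left) and 29 other lysosomal genes (right), by label prefix. Each point is a cell and black lines are means over cells; the pump means are 3.75 in the Ski-WT cells and 2.90 and 3.01 in the Ski-KO prefixes, and the ranges overlap in both panels.

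Further genes of the pathway were taken from lists written with earlier results of these data known. The table held 103 such genes, of which 51 passed the filter, 11 were lower by 1 or more (21.6%) and none was higher by 1, beside the 11.8% and 2.08% above. Their median difference was -0.35 past the filter and -0.13 over all 103. Of the genes past the filter 11 passed through the Ski-WT cells alone, and 1 through the Ski-KO cells alone. Among 11 autophagy genes past the filter 3 were lower by 1 or more. These were Map1lc3b, the LC3 protein that coats autophagosomes (-1.92, 39 against 47 cells), its relative Gabarapl2 (-1.59) and the mitophagy receptor Bnip3l (-1.13). Of 13 genes of sorting to the lysosome 4 were lower by that limit, led alike in both prefixes by M6pr, the mannose 6-phosphate receptor that delivers hydrolases (-1.76), and Vps29, a retromer subunit (-1.50). Vps16, a subunit of the tethering complexes that serve fusion with the lysosome, was higher, at 0.82. Among 10 regulators, Lamtor2, part of the complex that anchors mTORC1 signalling to the lysosome, differed by -2.04 (11 against 23 cells), but passed the filter through the Ski-WT cells alone. Fnip1, a partner of folliculin, differed by -1.88, and the other members of the Lamtor2 complex had -0.80 (Lamtor3), -0.04 (Lamtor5), 0.15 (Lamtor4) and 0.21 (Lamtor1). Of 4 further membrane genes past the filter 3 were lower in both prefixes, beside 44.3% of the 6240 genes, and 1 of the 4 passed through the Ski-WT cells alone. The median of the 4 was -0.54, and that of all 15 listed was -0.14. The tetraspanin Cd63 of late endosomes differed by -1.92 (35 against 45 cells). Of the 5 further pump genes past the filter only Ncoa7 was lower by 1 or more. Its difference was -1.17, but only -0.33 in prefix 051816. The median difference of the 5 was -0.17, beside -0.22 over the 6240 genes, and that of all 10 listed was -0.15. None of 8 further enzyme and cofactor genes passed the limit. Gm2a, the activator of ganglioside breakdown, was lower alike in both prefixes (-0.41, 41 against 42 cells), and the acid phosphatase Acp2 was higher, at 0.67 (8 against 2 cells).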

How the data were processed

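The members and gene lists were chosen with earlier results of these data known. Per the labels' protocols, the Fluidigm C1 system isolated and lysed the cells, and SMARTer cDNA went into Nextera XT libraries. Bowtie2, RSEM and mm9 are named in the submitters' processing notes, without versions or roles. The authors deposited log2 values. That they are log2(TPM + 1) was taken from their sums, since after back-transformation each of the 94 cells summed to between 997625 and 999995. No column was left unmapped. The highest correlation between cells was 0.53, so no cell was a copy of another. Cells were grouped by title, and prefixes were read from the description.

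Differences were means of the deposited log2 values, Ski-KO minus Ski-WT, pooled and per prefix, over the 6240 genes found above 0 in 25% or more of either genotype's cells, and the arithmetic was tested on simulated data. Named in full were the 6 members with the highest mean TPM, those alike in both prefixes, and the highest and lowest difference of each role; the rest were named more briefly. Of each pathway list, at most 2 genes per direction were named, by the smaller of the prefix differences. A gene that this rule names is not reported here. Bnip3l, Lamtor1, Lamtor3, Lamtor4, Lamtor5, Prtn3, S100a9 and Ngp were chosen after their values were seen. Promoters were matched by symbol, and RefSeq coordinates are in GRCm38.p6, not the mm9 of the notes. The tools were matplotlib 3.10.9, scipy 1.17.1, pandas 2.3.3 and numpy 2.4.6 under Python 3.11.15.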

Additional observations from a re-analysis of the deposited data

How the results depend on the processing

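No paired analysis was possible because the cell numbers in the titles only name cells, and no prefix holds both genotypes. The pump median (-0.73) was -0.93 with a pseudocount of 0.1, -0.54 with 5 and -0.39 after quantile normalization. It was -0.62 with the number of genes above 0 in each cell as a covariate. In prefix 051816 only it was -0.61, as a log2 ratio of mean TPM -0.13, and over genes above 0 in 50% of cells -1.39. The median of the other genes (-0.36) was -0.45 and -0.26 with the pseudocounts, -0.37 with values under 5 TPM set to 0, -0.33 after rescaling without ribosomal and the 100 highest genes, -0.063 after quantile normalization, -0.26 with the covariate, -0.33 and -0.32 in prefixes 051716 and 051816, -0.18 as a log2 ratio, -0.19 without a filter and -0.25 with a filter of 10% of cells. The pump module difference (-0.80) was -1.11 and -0.58 with the pseudocounts, -0.56 after quantile normalization and -0.63 with the covariate, and that of the other genes (-0.28) was -0.087 and -0.16 in the latter 2 settings. The cause of these shifts was not tested. Quantile normalization moved the median of the 6240 genes from -0.22 to -0.01, and the pump median was 0.38 below it, compared with 0.51 in the main analysis and 0.09 for the log2 ratio. The number of members lower by 1 or more, 7, lay between 5 and 10 over all alternatives, and none was higher by 1 except 1 in prefix 051716 and 3 by the log2 ratio. Of 70 values of the 7 members lower by 1 or more, 68 kept their direction and 56 were also past the limit of 1. The exceptions were the medians over cells above 0 for Atp6v0e (0.029) and Atp6v1f (0.20). At 10 TPM, 85 of 86 shares of cells lay inside the interval at 5 TPM, and above 0 TPM 50 did. Unknown depth limits every statement on cells at 0.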

Other observations

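Within the Ski-WT cells, single pump genes hardly varied together from cell to cell. The median Pearson correlation of log2(TPM + 1) over 91 pairs of pump genes was 0.03 (range -0.34 to 0.30, n = 48 cells), with -0.03 over 378 pairs of other lysosomal genes and 0.01 over 392 pairs between the sets. Such values are given as a description, since pairs share libraries and many cells are at 0. The pump mean per cell had a correlation of 0.35 with the number of genes above 0 in each genotype. The mean of the other genes had 0.54 in the Ski-KO and 0.43 in the Ski-WT cells. The pump and other means had a correlation of 0.14 in the Ski-WT cells (n = 48), 0.27 in prefix 051716 (n = 27) and 0.71 in prefix 051816 (n = 19), and these differences were not tested.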
